A study of Homo sapiens with 38 samples.

Results

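RNA of RKO cells treated with the LSD1 inhibitor conjugate NCD38-β2P4 was compared with RNA of DMSO-treated cells on day 4. RKO is a human colorectal cancer cell line, and the comparison holds 2 of the 8 RNA libraries of a series of 38 samples. Each side is 1 library, so no test between treatments was possible and every difference below is one between these libraries. The library labelled P4_NCD38 came from cells given 2 μM of the conjugate with DMSO, and the control library from cells given DMSO alone. The day 4 dose is 2 μM in the sample labels, while the methods text gives the same figure in mM. The other 6 libraries were NCD38 and NCD38-β2PIPP on day 4, and DMSO and the same 3 inhibitors on day 30. NCD38-β2P4 is NCD38 joined by a pair of β-alanines to the pyrrole polyamide Py-Py-Py-Py. In NCD38-β2PIPP the polyamide is Py-Im-Py-Py, with 1 imidazole. No RNA library of cells given a polyamide without NCD38 was analysed here, so an effect of the polyamide cannot be told apart from one of the conjugated inhibitor.

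LSD1, encoded by KDM1A, removes methyl groups from lysine 4 of histone H3. It works with the scaffold CoREST (RCOR1) and the deacetylases HDAC1 and HDAC2, and the complex is brought to silenced genes by factors such as REST. Pyrrole-imidazole polyamides lie in the minor groove of DNA, where pairs of pyrroles favour A and T bases, and Py-Py-Py-Py was chosen in the study for runs of 6 A or T bases. Expression was given as FPKM, which divides fragments by exon length and by the depth of the library. The measure used here is the log2 ratio of FPKM + 1 with NCD38-β2P4 over DMSO, and the added 1 makes the ratio of genes with low FPKM smaller. Of 25504 entries whose name occurred once, 10865 reached a mean of 1 FPKM across all 8 libraries and are called expressed.

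The libraries were first looked at as a whole. From the value that a single fragment took in genes with low FPKM, the day 4 depth was estimated at 17600000 fragments for DMSO and 12700000 for NCD38-β2P4. Few epithelial markers were expressed. The intestinal transcription factor CDX2 was at 10.8 FPKM with DMSO and 10.7 with NCD38-β2P4. Keratin KRT18 was at 90.0 and 87.6 FPKM, while CDH1 and VIL1 were listed at 0 in both libraries. Of 9 markers of fibroblasts, endothelial cells and leukocytes, none reached 0.1 FPKM in either library. CD68, which is in a longer list of such markers used below, was at 681.7 FPKM with DMSO and 694.9 with NCD38-β2P4. Ratios are relative within each library, so less RNA per cell cannot be told apart from a change in the share of a gene.

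At a 2-fold threshold, 120 entries were higher in the NCD38-β2P4 library (1.10% of those expressed) and 88 were lower (0.810%). Most were short RNAs or entries without a match in the gene annotation. Among the 9768 entries with a matched transcript of at least 500 nt, 36 were at least 2-fold higher (0.369%) and 4 were lower (0.0410%). Among the 312 with a shorter transcript, the numbers were 55 and 44, and among 785 unmatched entries 29 and 40. At a 1.5-fold threshold, the longer transcripts gave 732 higher (7.49%) and 57 lower (0.584%). The excess of higher over lower values thus lay in longer transcripts at modest ratios.

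The short entries took extreme values. SNORD48, a small nucleolar RNA that guides RNA methylation, was listed at 547 FPKM with NCD38-β2P4 and at 0 in the other 7 libraries. SNORD38B and SNORD38A were listed at 309.6 and 255 FPKM with NCD38-β2P4 and at 0 in all others. In the opposite direction, the microRNA entry MIR4449 was at 625.3 FPKM with DMSO, 412 with NCD38 and 0 with NCD38-β2P4. MIR1292 and SNORD34 were both listed at 312.6 FPKM with DMSO and at 0 in every other library. Of 84 entries under 300 nt that were above 0 in both libraries, 14 had the same ratio of FPKM, 1.37, when rounded to 3 decimals. Mature small RNAs are also not what poly(A) selection is made for. The snoRNA entries as a list were at least 2-fold higher in 33 and at least 2-fold lower in 36 of 160 expressed members, with a median of 0.00. No level of a small RNA is read from these entries.

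Ratios followed the base composition of the transcripts. The 10080 expressed genes with an annotated transcript were split into 5 equal groups by GC content. The 2016 genes with the lowest GC content (27.3 to 41.4%) had a median log2 ratio of 0.34. The next group, up to 46.5% GC, had 0.30, and the middle group 0.09. Both groups above 52.9% GC were at -0.01. At a 1.5-fold threshold, 395 genes of the lowest group were higher and 3 were lower. In the highest group these numbers were 32 and 33. Spearman's rho between ratio and GC content was -0.53 across genes, which are not independent replicates and which share both libraries.

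**Figure D1:**
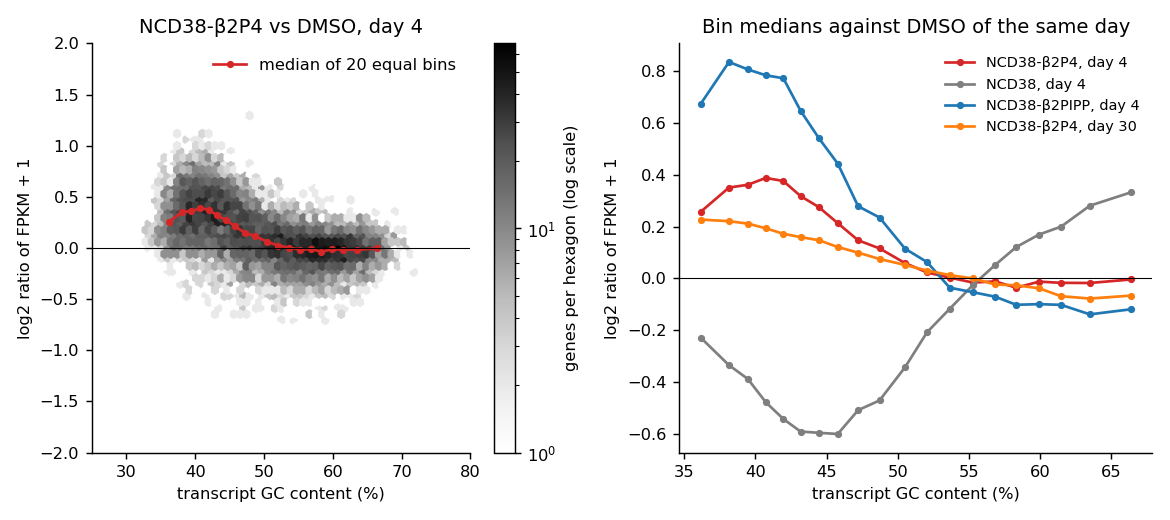
Log2 ratio against transcript GC content. Left, genes of the day 4 comparison of NCD38-β2P4 with DMSO (grey hexagons, between -2 and 2 only) and the median of 20 equal bins (red), which is highest at 0.39 in the bin around 40.7% GC and lies between -0.04 and 0.00 in the bins above 55%. Right, the same bin medians for the other inhibitors of day 4, which share the DMSO library, and for NCD38-β2P4 on day 30.

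The same genes had other trends in the other libraries. In the lowest GC group the median was -0.35 with NCD38 and 0.78 with the PIPP conjugate, both against the DMSO library that NCD38-β2P4 was compared with. With NCD38-β2P4 on day 30, against the DMSO library of that day, it was 0.21. Between both DMSO libraries, which were given no inhibitor but differ in day, the median log2 ratio of day 30 over day 4 was 1.43 in the lowest GC group and -0.69 in the highest. The GC trend between the libraries without inhibitor was thus wider than that between NCD38-β2P4 and DMSO on day 4. The part of such a trend in the ratios of single genes was not tested. Transcript length moved with the ratio as well, with medians from -0.06 in the shortest to 0.22 in the longest of 5 equal groups, and rho was 0.36. To give each gene beside others of like composition, the median of its bin of GC content (20 equal bins) was subtracted. After this, 65 of the 10080 genes were at least 2-fold higher (0.645%) and 56 were lower (0.556%). At 1.5-fold, 167 were higher (1.66%) and 211 lower (2.09%), on a scale where each bin is centred at 0.

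The genes with the highest ratios were then examined among the 6258 whose transcript had 500 nt or more and whose FPKM reached 5 in either library. Of these, 32 were at least 2-fold higher (0.511%) and 2 lower (0.0320%). HNRNPH2, a splicing regulator of the hnRNP H family on chromosome X with 2 exons, had the highest ratio. It was at 1.46 FPKM with DMSO and 1.42 with NCD38 on day 4, against 6.004 with NCD38-β2P4 and 7.44 with the PIPP conjugate. Its log2 ratio was 1.51, or 1.13 after subtracting the GC trend. Without the added 1 it was 2.04, and the 95% counting half-width from the estimated fragments was 0.43. A separate entry joins it to its neighbour RPL36A, so reads of HNRNPH2 can be split between both entries. The entries summed to 4.42 FPKM in the DMSO library and to 9.07 in the NCD38-β2P4 library. On day 30, HNRNPH2 was at 12.1 FPKM with DMSO and 10.7 with NCD38-β2P4, a ratio of -0.17.

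HSP90AA1, the inducible cytosolic chaperone HSP90α, was at 22.5 FPKM with DMSO, 60.5 with NCD38-β2P4, 136.5 with the PIPP conjugate and 15.5 with NCD38. Its log2 ratio with NCD38-β2P4 was 1.39, or 1.43 without the added 1, and the counting half-width of the latter was 0.10. On day 30 HSP90AA1 was at 482.7 FPKM with DMSO and 543.8 with NCD38-β2P4, a ratio of 0.17. The pseudogene entry HSP90AA6P (1.37) can share reads with it. The DMSO libraries of both days thus lay further apart in HSP90AA1 than NCD38-β2P4 and DMSO did on either day.

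PSMC6, an ATPase subunit of the proteasome, was at 1.56 FPKM with DMSO and 5.33 with NCD38-β2P4, a log2 ratio of 1.30. EEF1E1, a scaffold of the aminoacyl-tRNA synthetase complex, went from 2.44 to 7.20 FPKM, a ratio of 1.25. NARS, the cytosolic asparaginyl-tRNA synthetase, was at 6.42 and 16.4 FPKM. Each of these 3 was lower with NCD38 than with DMSO, as were 29 of the 32 genes and 59.4% of the 6258. Each was also higher with the PIPP conjugate than with NCD38-β2P4, as were 28 of the 32 and 53.1% of the 6258. COPS4, a subunit of the COP9 signalosome, was at 2.99 FPKM with DMSO and 8.32 with NCD38-β2P4, and CSE1L, which exports importin α from the nucleus, at 3.31 and 9.08.

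**Figure D2:**
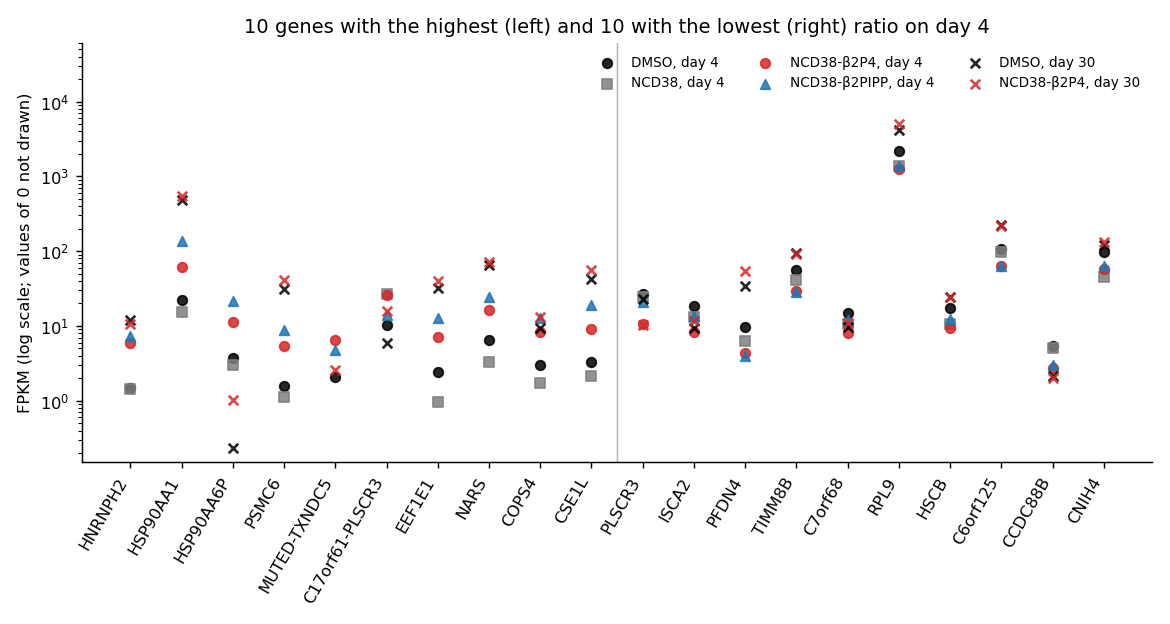
FPKM (log axis) of the 10 genes with the highest and the 10 with the lowest log2 ratio on day 4, among the 6258 genes described above. Symbols are single libraries, of which 6 are drawn. For HSP90AA1 the day 4 values run from 15.5 to 136.5 FPKM, and the day 30 values are 482.7 and 543.8.

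Of the 32 genes, 17 reached 5 FPKM only in the NCD38-β2P4 library, where they are high by choice, so the values below are a description. The 32 were low in GC content, with a median of 40.9% against 49.6% over all matched genes. After the GC trend was subtracted, 9 of the 32 stayed at or above 2-fold. On day 30, in libraries that the day 4 ratio did not use, their median ratio of NCD38-β2P4 over DMSO was 0.21, and 2 were at least 2-fold higher (0.506% of all expressed entries were).

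Both of these 2 are entries that join neighbouring genes. C17orf61-PLSCR3 was at 10.4 FPKM with DMSO and 26.2 with NCD38-β2P4, while PLSCR3, a phospholipid scramblase of mitochondria that shares its exons, was at 26.7 and 10.7. The sum of both entries was 37.05 FPKM with DMSO and 36.91 with NCD38-β2P4. With NCD38 on day 4, C17orf61-PLSCR3 was at 26.7 FPKM and PLSCR3 at 24.5. On day 30 C17orf61-PLSCR3 had a ratio of 1.31 with NCD38-β2P4 and PLSCR3 one of -1.08. Fragments of shared exons can be assigned to either entry, and the part of this in the ratios was not tested. MUTED-TXNDC5 was at 2.06 and 6.49 FPKM on day 4, and on day 30 it was at 0.0037 with DMSO and at 2.56 with NCD38-β2P4. The much higher TXNDC5, a disulfide isomerase of the endoplasmic reticulum, was at 146.2 and 156.5. TNFAIP8L2-SCNM1 was the remaining one of 36 such joined entries with a 2-fold higher value, so 3 of 36 were (1.10% of all expressed entries), and none was 2-fold lower (0.810%).

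At the other end, ISCA2, which assembles iron-sulfur clusters in mitochondria, was at 18.7 FPKM with DMSO and 8.22 with NCD38-β2P4. Its log2 ratio was -1.10, or -1.42 with the GC trend subtracted. Without the added 1 it was -1.19 and its counting half-width 0.20. NCD38 and the PIPP conjugate were between them, at 13.4 and 13.7 FPKM. PFDN4, a subunit of the prefoldin chaperone, was at 9.60 FPKM with DMSO and 4.32 with NCD38-β2P4, and TIMM8B, a chaperone of the mitochondrial intermembrane space, at 56.0 and 29.4. HSCB, a co-chaperone of iron-sulfur cluster transfer, was at 17.1 and 9.50 FPKM. C6orf125, an assembly factor of respiratory complex III now named UQCC2, was at 108.5 and 62.7. CNIH4, a cargo receptor of early secretory vesicles, was at 96.8 and 57.2 FPKM, and CCDC88B at 5.34 and 2.77. C7orf68, the hypoxia-induced lipid droplet gene now named HILPDA, had a log2 ratio of -0.82. RPL9, a ribosomal protein gene, was at 2208 and 1256 FPKM. Except for ISCA2 and PLSCR3, these ratios lay between -0.99 and -0.75. Each of these genes was also lower with NCD38 and with the PIPP conjugate than in the shared DMSO library. The PIPP conjugate was below NCD38-β2P4 for PFDN4 (3.91 FPKM), TIMM8B (28.6) and C6orf125 (62.4), and NCD38 was for CNIH4 (45.8). For the other genes NCD38-β2P4 was lowest on day 4, with RPL9 at 1374 FPKM with NCD38 and 1382 with the PIPP conjugate.

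The study designed the P4 conjugate for runs of 6 A or T bases, so promoters were read for such runs. The RefSeq promoters (GRCh38.p14, 250 bases before to 50 after the start) of 5729 matched genes with a single listed start were used. A run of 6 or more bases that are each A or T was found in 44.3% of them, against 61.2% of all 35116 promoters in that table. The 4 promoters below are those of 2 genes with a high ratio and 2 with a low ratio, each pair with and without runs. Runs are in capitals, and both strands hold the same runs.
HNRNPH2 (higher; chrX:101407972-101408271, plus strand): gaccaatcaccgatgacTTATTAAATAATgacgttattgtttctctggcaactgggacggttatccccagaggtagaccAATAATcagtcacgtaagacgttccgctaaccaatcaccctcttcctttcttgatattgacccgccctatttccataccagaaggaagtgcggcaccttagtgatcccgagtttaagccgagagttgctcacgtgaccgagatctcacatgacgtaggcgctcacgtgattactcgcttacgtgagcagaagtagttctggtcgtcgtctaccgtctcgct
COPS4 (higher; chr4:83034933-83035232, plus strand): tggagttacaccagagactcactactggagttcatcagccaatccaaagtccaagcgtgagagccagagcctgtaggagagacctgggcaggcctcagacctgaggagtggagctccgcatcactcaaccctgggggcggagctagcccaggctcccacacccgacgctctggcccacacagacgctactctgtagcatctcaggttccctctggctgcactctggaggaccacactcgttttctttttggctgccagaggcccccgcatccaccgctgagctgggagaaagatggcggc
CNIH4 (lower; chr1:224356629-224356928, plus strand): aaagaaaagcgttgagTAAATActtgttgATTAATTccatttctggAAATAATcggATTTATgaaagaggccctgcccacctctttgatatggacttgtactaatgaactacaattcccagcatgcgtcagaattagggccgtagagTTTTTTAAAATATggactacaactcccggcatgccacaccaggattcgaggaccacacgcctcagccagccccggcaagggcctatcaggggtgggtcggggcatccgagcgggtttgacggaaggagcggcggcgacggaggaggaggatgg
ISCA2 (lower; chr14:74493515-74493814, plus strand): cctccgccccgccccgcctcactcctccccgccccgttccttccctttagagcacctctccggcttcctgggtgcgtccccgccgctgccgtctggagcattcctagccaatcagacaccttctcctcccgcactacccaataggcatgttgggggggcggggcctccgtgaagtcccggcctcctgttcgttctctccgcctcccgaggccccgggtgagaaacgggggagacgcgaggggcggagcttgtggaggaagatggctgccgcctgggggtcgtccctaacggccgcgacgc
The promoter of HNRNPH2 held 2 runs, the longest of 12 bases, and that of CNIH4 held 5, the longest of 13 bases. COPS4 and ISCA2 had none. The 4 were chosen to show both cases in each direction.

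Over all 5729 genes, the median log2 ratio was 0.09 for the 3192 genes without a run and 0.19 for the 277 with 4 or more. In between, 1, 2 and 3 runs gave 0.11, 0.13 and 0.14. Transcripts of these genes also differed in GC content, with a median of 50.6% without a run and 45.5% with 4 or more. After subtracting the GC trend the 5 medians lay between -0.01 and 0.00, and rho with the number of runs was -0.01, against 0.06 before. The share of genes at least 1.5-fold higher after subtraction was 0.814% without a run and 2.53% with 4 or more, that is 26 and 7 genes. The share at least 1.5-fold lower was 1.72% and 3.61%, so both tails were wider. Genes with 4 or more runs were also lower in level, at a median of 4.66 FPKM with DMSO against 9.39.

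Runs of A or T bases along the whole gene, on GRCh37, gave a steeper course. The median log2 ratio was -0.02 in the group of genes with the fewest runs per kb and 0.35 in the group with the most, of 5 equal groups. After subtracting the transcript GC trend, these were -0.02 and 0.03. The number of runs per kb and transcript GC content were nearly the same order of genes, with a rho of -0.87, and cannot be told apart here. Chromosomes followed the same course, from a median of 0.29 on chromosome 13, whose transcripts had a median GC content of 42.4%, to -0.01 on chromosome 19, with 60.4%. With the GC trend subtracted, all 23 chromosomes were between -0.02 and 0.04.

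The target of the inhibitor and its partners were expressed. On day 4 KDM1A was at 56.6 FPKM with DMSO, 69.8 with NCD38-β2P4, 72.1 with the PIPP conjugate and 38.01 with NCD38. Its log2 ratio with NCD38-β2P4 was 0.30. RCOR1 was at 4.31 and 6.46 FPKM with DMSO and NCD38-β2P4, and HDAC2, another deacetylase of the complex, at 1.11 and 2.14. HDAC1 was at 104.2 and 100.4 FPKM. Of 14 expressed members of the LSD1 and CoREST complex list, 11 were above 0, against 65.0% of all expressed entries. None was 1.5-fold apart in FPKM + 1 (7.87% of all entries were 1.5-fold higher and 1.68% lower). The added 1 matters for low members: without it the log2 ratio of HDAC2 was 0.95, with a counting half-width of 0.27. The median was 0.17, or 0.07 with the GC trend and 0.03 with the length trend subtracted, beside 0.09 for all expressed entries. REST was at 0.65 and 0.96 FPKM. Of 30 neuronal REST target genes in the table only 5 were expressed, with a median of 0.08, and VGF, a neuropeptide precursor, was highest, at 8.10 and 11.1 FPKM. A list of enzymes that methylate lysine 4 of histone H3, subunits of their complexes, KDM5 genes and KDM6A had a median of 0.15 over 17 members. Over the 15 matched ones it was 0.11 with the GC trend and 0.02 with the length trend subtracted. Histone acetylation genes had 0.05 over 21 members, or 0.04 and -0.06 with these trends subtracted. ZBTB3 was at 1.39 and 1.55 FPKM, BACH1 at 0.52 and 1.36, and ONECUT3 was listed at 0 in both libraries.

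Genes of cytosolic ribosomal proteins stood lowest among the lists. Of 79 members, 62 were lower and 17 higher with NCD38-β2P4 (65.0% of all expressed entries were higher). At least 1.5-fold lower were 8 members (1.68% of all entries), and 2 were at least 1.5-fold higher (7.87%). Their median was -0.30, and it was -0.37 with the GC trend, -0.27 with the length trend and -0.25 with both trends subtracted in turn. RPL9 (-0.81) was lowest together with RPL35, which was at 8025 FPKM with DMSO and 4592 with NCD38-β2P4. RPL7 (504 and 957.4 FPKM) and RPS24 (372.6 and 659.6 FPKM) had the highest ratios, 0.92 and 0.82. Transcript GC content was 40.3% for RPL7, 43.8% for RPS24, 42.3% for RPL9 and 58.2% for RPL35. With NCD38 all expressed entries had a median of -0.21 against the same DMSO library, and with the PIPP conjugate 0.17. The list had -0.21 and -0.41. On day 30 with NCD38-β2P4 it was at -0.04, and 28 of 79 were above 0 (62.1% of all expressed entries were). Many processed pseudogenes resemble these genes, so their fragments can be shared with other entries.

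Nuclear genes of the respiratory chain were lower as well. Of 73 members 51 were lower and 22 higher, where 65.0% of all entries were higher, with a median of -0.17, or -0.22 with the GC trend subtracted. NDUFB2, a subunit of complex I, was at 558.6 FPKM with DMSO and 343.2 with NCD38-β2P4, while the complex I subunit NDUFS4 was at 10.8 and 19.7. Like the ribosomal list, the list is of short transcripts, with a median length of 763 nt. With the length trend subtracted its median was -0.16. For NCD38 and the PIPP conjugate, against the same DMSO library, the list median was -0.14 and -0.25. All expressed entries had -0.21 and 0.17. The proteasome list split around PSMC6, with 14 of 31 members higher (65.0% of all entries were) and a median of -0.01. Its ATPase and α-ring members PSMC6 and PSMA2 (15.5 and 29.6 FPKM) were highest. The β-ring members PSMB7 (872.7 and 568.2 FPKM) and PSMB6 (340.9 and 258.7 FPKM) were lowest. Transcript GC content was 36.4% for PSMC6, 39.5% for PSMA2, 49.8% for PSMB7 and 55.2% for PSMB6.

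Immediate-early genes and other outputs of the ERK pathway had small positive ratios. Of 27 members 23 were above 0 (65.0% of all expressed entries were), and 2 were at least 1.5-fold higher (7.87%). The number above 0 was the same before and after the GC trend was subtracted, which by construction puts the median of all matched genes at 0, and the median was 0.22 before and 0.18 after. With the length trend subtracted instead, the median was 0.11. DUSP6, a phosphatase that dampens ERK, was at 20.1 FPKM with DMSO, 33.1 with NCD38-β2P4, 39.8 with the PIPP conjugate and 7.77 with NCD38. FOS, a subunit of the AP-1 factor, was at 4.74 FPKM with DMSO and 7.79 with NCD38-β2P4. The list median was -0.41 for NCD38 and 0.07 for the PIPP conjugate, where all expressed entries had -0.21 and 0.17. On day 30 the list median was -0.03 with NCD38-β2P4, with 9 of 27 members above 0 (62.1% of all expressed entries were). ATF3 was the lowest member, at 2.10 and 1.73 FPKM.

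The stress lists held members in both directions. The list of unfolded protein and heat shock genes had a median of 0.27, and 0.08 with the GC trend subtracted. In it HSP90B1, the HSP90 of the endoplasmic reticulum, was at 25.4 and 45.8 FPKM, and SDF2L1, induced by unfolded proteins in the same compartment, at 89.8 and 73.9. Genes of the ATF4 amino acid response had a median of -0.06. DDIT4, an inhibitor of mTORC1, was at 17.4 and 10.6 FPKM and CHAC1, which degrades glutathione, at 12.5 and 7.87, while the tRNA exporter XPOT was at 4.97 and 9.83. Targets of NRF2 and BACH1 had a median of 0.07, led by thioredoxin reductase TXNRD1 at 13.6 and 25.8 FPKM. NQO1, a quinone reductase, was at 24.2 and 20.7. Further lists are given before and after the GC trend was subtracted, where all expressed entries had a median of 0.09 before it. Medians were 0.03 and -0.07 for cholesterol synthesis, 0.08 and 0.003 for hypoxia and glycolysis, and 0.05 and -0.02 for p53 targets. They were 0.13 and 0.05 for interferon-induced genes, 0.04 and -0.0005 for NF-kB inflammatory genes, and -0.01 and -0.05 for MHC class I presentation. Within them NFKB1, a subunit of NF-kB, was at 18.9 and 23.04 FPKM, and the immunoproteasome subunit PSMB8 was at 66.3 and 49.0.

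**Figure D3:**
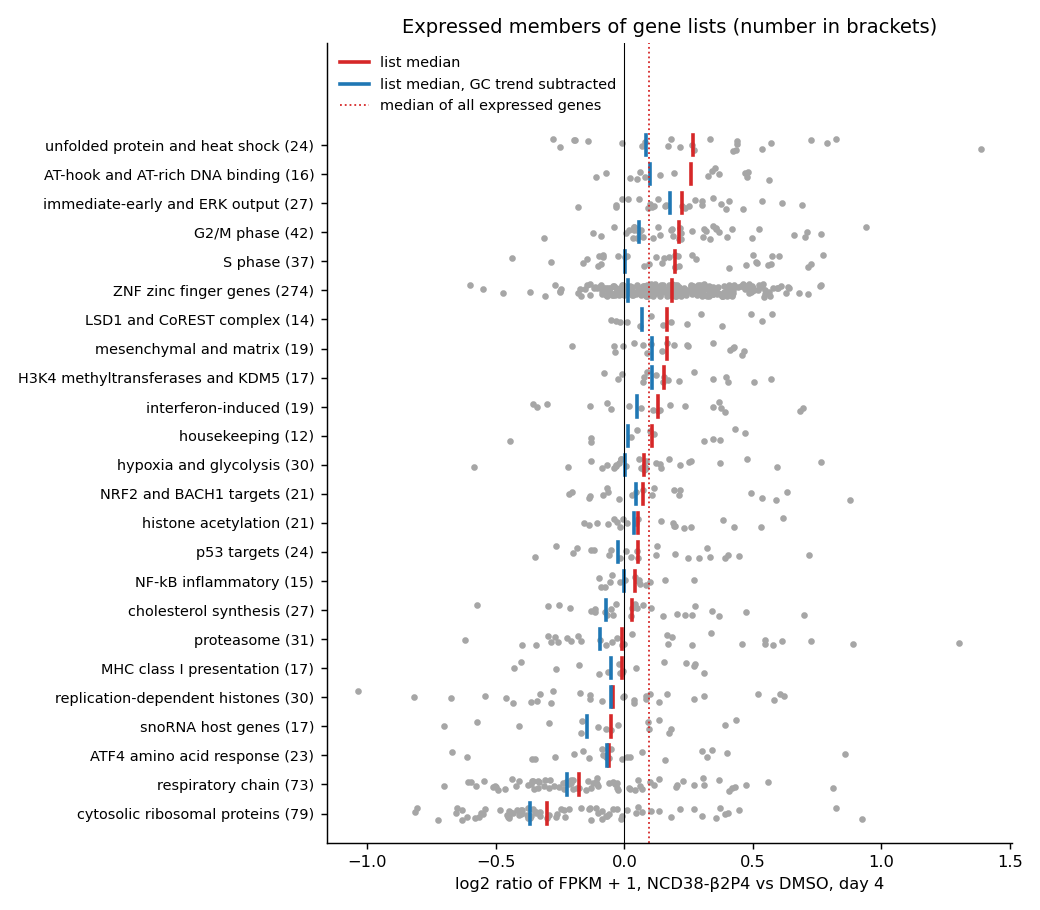
Log2 ratio of the expressed members (grey points) of 24 gene lists with at least 12 such members, sorted by median, without the snoRNA entries. Red bars are the list medians, blue bars the medians with the GC trend subtracted, and the dotted line is the median of all expressed entries, 0.09. Cytosolic ribosomal proteins (-0.30) and the respiratory chain (-0.17) lie lowest.

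Cell cycle genes lay a little above the rest before the GC trend was considered. The G2/M list had 38 of 42 members above 0 (65.0% of all expressed entries were) and a median of 0.21. With the GC trend subtracted, 24 members were above 0 and the median was 0.06. By construction, the median of all matched genes is then 0. CCNA2, cyclin A2, was at 4.02 FPKM with DMSO and 8.62 with NCD38-β2P4, and BIRC5, survivin, at 66.4 and 53.3. The S phase list went from 0.20 to 0.00, between POLA1, the catalytic subunit of DNA polymerase α (1.27 and 2.88 FPKM), and GINS2 of the replicative helicase (56.8 and 41.7 FPKM). On day 30 the medians with NCD38-β2P4 were 0.36 for G2/M and 0.27 for S phase, beside 0.06 for all expressed entries. Replication-dependent histones, whose transcripts mostly lack poly(A) tails, had a median of -0.05 over 30 members. HIST1H3F was at 1.62 and 0.28 FPKM, with a counting half-width of 2.27.

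The remaining lists are given as medians before and after the GC trend was subtracted. Of the 274 expressed entries named ZNF, most of them zinc finger genes, 220 were above 0 (65.0% of all expressed entries were). Their median was 0.19. After the GC trend was subtracted it was 0.02, with 149 of 269 matched members above 0. Proteins with AT-hooks or other domains for AT-rich DNA had medians of 0.26 and 0.10, with the chromatin protein HMGA2 at 14.8 FPKM with DMSO and 22.4 with NCD38-β2P4. Nuclear long noncoding RNAs had 0.47 and 0.10 over 7 members, from TUG1 (1.91 and 3.28 FPKM) to FTX (33.0 and 22.6 FPKM). Among them NEAT1, the scaffold of paraspeckles, was at 0.52 and 1.15 FPKM. Mesenchymal and matrix genes had 0.17 and 0.11. Housekeeping genes had 0.11 and 0.01, and the 5 expressed epithelial and colon genes 0.04 and 0.05. Host genes of snoRNAs had a median of -0.05, and -0.15 after subtraction. GAS5, a noncoding host of snoRNAs, was at 1226 FPKM with DMSO and 752.9 with NCD38-β2P4. Of the remaining list, markers of fibroblasts, endothelial cells and leukocytes, only the lysosomal CD68 was expressed (681.7 and 694.9 FPKM).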

How the data were processed

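RNA was sequenced by the authors from RKO cells with a stranded poly(A) mRNA kit, 1 library per condition. The paper names TopHat and Cufflinks, and the submitters' processing notes name HISAT2 2.2.1.0, Cufflinks and hg19. The annotation was not given in the sources used here. The deposited table holds FPKM per gene symbol, without counts. ChIP samples were not used here.

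Log2 ratios of FPKM + 1 were computed for entries with a unique name (90 entries left out) and a mean FPKM of at least 1. Length and GC content came from GENCODE release 44 (GRCh37), with 9060 symbols found as such and 1020 through an older symbol. Fragments were estimated from the FPKM of single fragments and give 95% counting half-widths, which hold without a pseudocount and cover counting error only. Promoters came from RefSeq. Genes named in the text were the 10 highest and 10 lowest ratios (transcript of at least 500 nt, FPKM of at least 5), 5 and 5 with the GC trend subtracted, 5 and 5 short entries, up to 2 and 2 per gene list, and genes of the study. TXNDC5, TNFAIP8L2-SCNM1 and the marker genes were added. Members and lists were chosen with earlier results of these data known. Python 3.11.15 with pandas and scipy was used, and the functions were tested on simulated data. In all, 12 alternatives were fixed and 2 added after seeing the data.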

Additional observations from a re-analysis of the deposited data

Results flagged for a closer look

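The median of the respiratory chain list was -0.17 with NCD38-β2P4 on day 4 and 0.11 on day 30, each against the DMSO library of its day, so the sign differed between days. All expressed entries had medians of 0.09 and 0.06 on these days, and 48 of the 73 list members were above 0 on day 30 (62.1% of all entries were). With 1 library in each condition the difference between days was not tested. PFDN4, the prefoldin subunit, also had opposite signs, with a log2 ratio of -0.99 on day 4 (9.60 FPKM with DMSO and 4.32 with NCD38-β2P4) and 0.68 on day 30 (33.8 and 54.6 FPKM). This difference was not tested either.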

How the results depend on the processing

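No paired analysis was possible because each condition has 1 library. The median log2 ratio of expressed entries stayed between 0.05 and 0.11 under every alternative run for it. The number of entries at least 2-fold higher (120) was 500 with a pseudocount of 0.1, 66 with a pseudocount of 5, 73 with FPKM of at least 1 in both libraries, 36 with transcripts of at least 500 nt, 65 with the GC trend, 78 with the length trend and 67 with both subtracted. The number lower (88) was 17 with FPKM of at least 1 in both libraries, 4 with transcripts of at least 500 nt, and 56, 48 and 47 with those trends subtracted. The difference in median ratio between promoters with 4 or more runs and without a run (0.11) was 0.033 with a pseudocount of 5, -0.00058 with all entries above 0 in 1 library, 0.0066 with the GC trend and 0.015 with both trends subtracted. With the DMSO library of day 30 as comparator, 1906 entries were higher and 2033 lower, Spearman's rho with GC content turned to 0.60 and the difference by promoter runs to -0.54. Then the ratios of HNRNPH2 (-0.91), HSP90AA1 (-2.98), PSMC6 (-2.35), EEF1E1 (-2.04), NARS (-1.92), COPS4 (-0.14), CSE1L (-2.11) and SNORD3B-2 (-1.06) were reversed. The medians of 25 of 29 gene lists moved by over 0.05 there, and 6 changed sign. The cause of these shifts with the day 30 comparator was not tested. List medians moved in other settings too. With the median ratio set to 0, which shifts each list by the same amount, all 29 moved and 10 changed sign. With the GC trend subtracted 17 moved and 4 changed sign. With the length trend subtracted 16 moved and 7 changed sign. Since each treatment has 1 library, none of these settings measures the spread between cultures, and depth limits low genes: HNRNPH2 rests on an estimated 58.9 fragments with DMSO.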
